A study of Mus musculus with 12 samples.

Results

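Glutathione S-transferases (GSTs) join the tripeptide glutathione to reactive electrophiles, which makes these more soluble and easier to export. The family holds soluble classes named alpha, mu, omega, pi, theta and kappa, and separate membrane-bound enzymes, the microsomal GSTs. In the intestine these enzymes are known for the handling of food-borne chemicals, drugs and products of lipid oxidation. Many GST genes are targets of NRF2, a transcription factor that responds to oxidants and electrophiles. The 10 genes described here are Gsta4, Gstm1, Gstm3, Gstm5, Gsto1, Gstp1, Gstt1, Gstk1, Mgst1 and Mgst2, out of 24906 genes listed in each expression table. They were picked by name with their levels in each library and their same-line changes already known, so those values are given as a description. The fit over all genes includes them, and its values for them are printed with nothing read from them.

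The data are RNA-Seq from 12 libraries of mouse small intestinal tumor organoids, which are cell clusters grown in culture from tumor tissue. Every library was labelled with the genotype Smad4KO;BRAFV600E/+;pINDUCER-SMAD4. The mice had lost Smad4 and gained an active BRAF allele through Villin-CreERT2, a tamoxifen-activated Cre that is driven in the intestinal epithelium, and the organoids were then transduced with a lentivirus from which doxycycline (dox) induces SMAD4. SMAD4 is the transcription factor shared by the TGFβ and BMP pathways. In basement membrane extract (BME), which allows 3D growth, there were 3 untreated libraries (organoid lines 682, 700 and 889), 2 libraries with 4 µg/mL dox for 48 h (lines 700 and 889) and 1 library of line 682 labelled as mock dox. Organoids of lines 560, 700 and 889 on tissue culture plastic gave 3 untreated and 3 dox libraries. The dose of 4 µg/mL and the time of 48 h also apply to the mock library and the plastic dox libraries. The study describes the organoids without dox as given vehicle. The study counts the mock library as a control, but its title names dox without the word mock and its genotype label names the SMAD4 construct. Whether it carried a mock plasmid in place of the SMAD4 construct is not stated in the sources used here. Per the study's methods the medium of all cultures held N-acetyl-L-cysteine, a precursor of glutathione. By the description of the study the mice were young adults when they received tamoxifen, and the tumors were taken months later.

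Levels are given in FPKM, a level that is already corrected for transcript length and library size, as deposited, and changes are treated minus untreated on the log2(FPKM + 1) scale. The tables for BME and plastic were normalized separately, so levels are compared only within a table. Each library had 15723 to 16805 genes above 0, and the deepest library had 1.23 times the reads of the shallowest in BME and 1.32 times on plastic, as estimated from the steps between low values. The Smad4 level in BME was 6.53 FPKM without and 17.2 FPKM with dox in line 700, and 6.23 and 27.3 FPKM in line 889. On plastic the untreated and dox levels were 1.54 and 73.6 FPKM in line 560, 2.99 and 18.1 FPKM in line 700, and 4.76 and 48.9 FPKM in line 889. The species of the SMAD4 cDNA in the construct is not given in the sources used here, so these values cover only reads assigned to mouse Smad4. In the mock pair it was 8.88 FPKM without and 10.3 FPKM with dox, so the mock library stood below both BME dox libraries. Epithelial markers (8 of 8 found, among them Epcam, Cdh1 and Krt8) summed to 3902 to 9534 FPKM in BME and 11679 to 17189 FPKM on plastic. The summed level was at most 5.41 FPKM for 6 fibroblast markers, 3.65 FPKM for 4 endothelial markers and 39.4 FPKM for 5 immune markers, with defining genes such as Lum, Cdh5 and Cd3e at 0 in every library of at least 1 group.

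The mu class genes are shown by sequence because close copies can exchange reads. On the NCBIM37 assembly, which is the mm9 build named in the submitters' processing notes, Gstm5 lies at chr3:107698739-107701604 on the plus strand, while Gstm3 (chr3:107745251-107772201) and Gstm1 (chr3:107815173-107820891) lie on the minus strand of the same cluster. The annotation lists all 10 as protein-coding genes. The stretch of 60 coding bases below starts at coding base 1 in Gstm1 and Gstm3 and at coding base 10 in Gstm5, the ungapped offset with the most matches, and capitals mark bases that differ from Gstm1.
Gstm1: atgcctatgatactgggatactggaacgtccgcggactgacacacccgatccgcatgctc
Gstm3: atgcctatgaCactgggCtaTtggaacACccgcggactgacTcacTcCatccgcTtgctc
Gstm5: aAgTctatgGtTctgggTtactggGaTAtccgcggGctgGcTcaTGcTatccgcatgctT
Gstm3 differed from Gstm1 at 9 of these bases and Gstm5 at 15. Over the longest coding sequence, identity was 89.5% between Gstm1 and Gstm3 but 69.5% between Gstm1 and Gstm5. Of the words of 31 bases in the annotated transcripts of Gstm5, 0% occurred in a protein-coding transcript of another gene, against 22.0% for Gstm1 and 22.3% for Gstm3. For Gstp1 the share was 73.0%, all of it with Gstp2, whose coding sequence was 98.1% identical. Levels of Gstp1, Gstm1 and Gstm3 are therefore uncertain where reads could be split among copies. Gsta4, Gsto1, Gstk1, Mgst1 and Mgst2 shared 0% and Gstt1 0.468%.

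The pi class enzyme Gstp1 and the omega class enzyme Gsto1, which can also reduce dehydroascorbate, were the most abundant members without dox. In untreated BME libraries Gstp1 was at 1739 ± 881 FPKM and Gsto1 at 907 ± 462 FPKM (SD, n = 3), followed by Gsta4 at 339 ± 52.8, Gstm1 at 274 ± 211, Gstt1 at 184 ± 49.2, Mgst1 at 176 ± 84.8, Gstm5 at 61.4 ± 22.5, Mgst2 at 57.8 ± 33.3, Gstm3 at 29.2 ± 23.6 and Gstk1 at 19.5 ± 9.23 FPKM. Only 1 of the 9 steps in this order, that from Gsto1 to Gsta4, separated libraries whose ranges did not overlap. On plastic the untreated order began with Gsto1 at 1243 ± 758 and Gstp1 at 1198 ± 379 FPKM (SD, n = 3), with Gsta4 next at 85.9 ± 51.3 FPKM and Gstm3 last at 1.75 ± 2.01 FPKM. Here 2 of 9 steps had no overlap, from Gstp1 to Gsta4 and from Gstk1 to Gstm3. Gstm3 was near the limit of detection on plastic, where its lowest library held about 6 reads by the estimated depth.

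**Figure D1:**
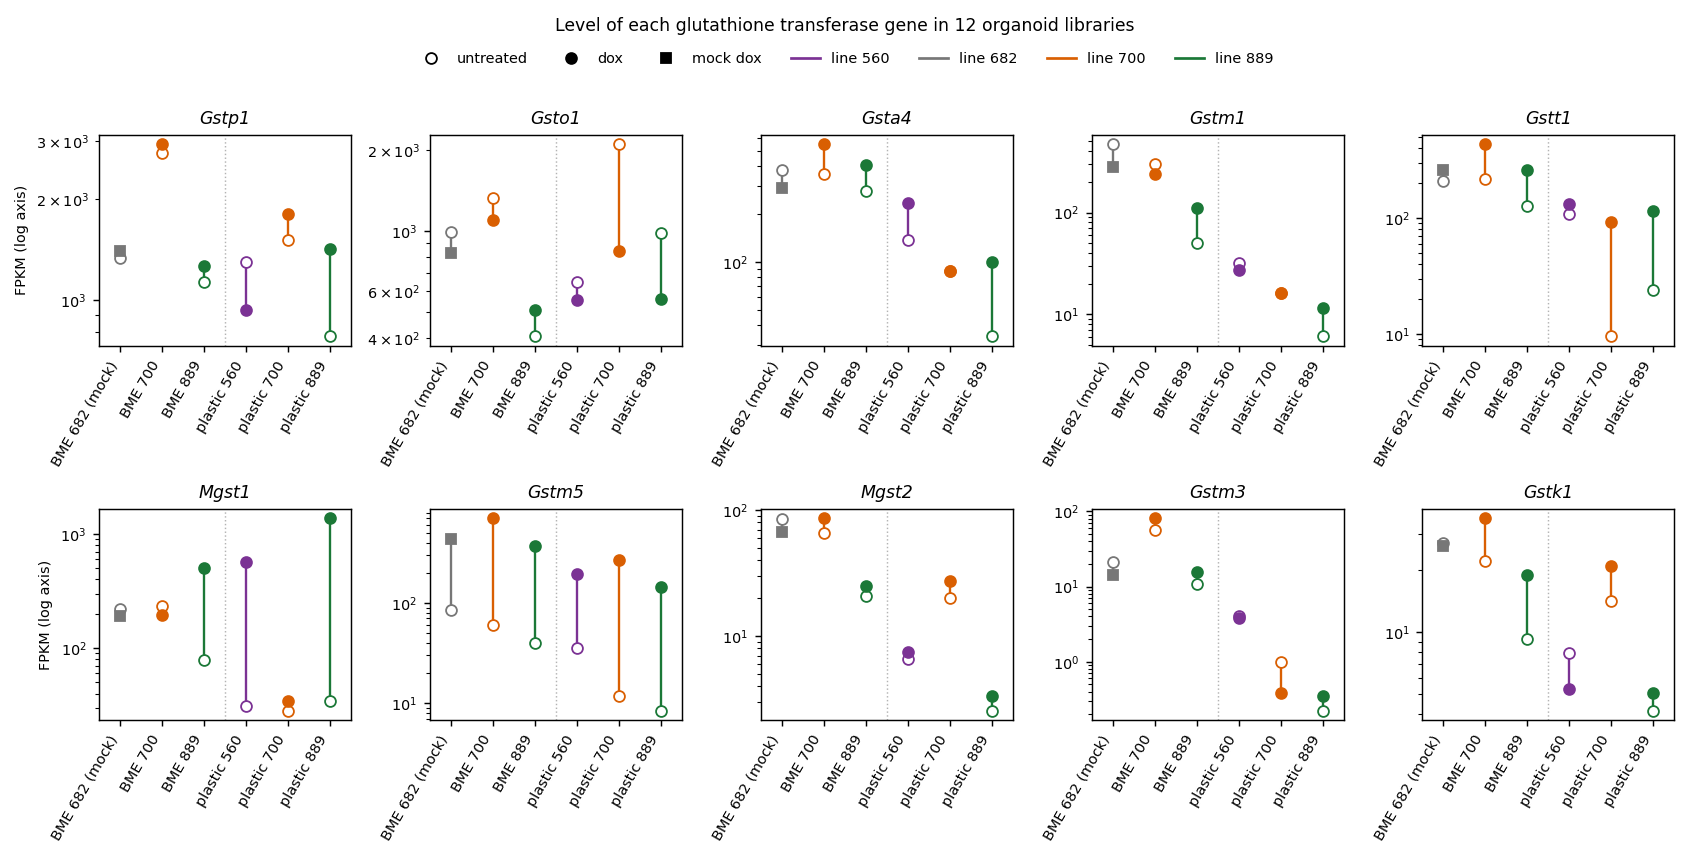
FPKM on a log axis for each of the 10 members, with open circles for untreated, filled circles for dox and squares for the mock dox library, joined within an organoid line; each panel has its own scale. Gstm5 is higher in the treated library of all 6 pairs, while Mgst1 is far higher with dox in line 889 and in line 560 and lies close to its untreated level in line 700.

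With dox, the mean of Gstm5 was in the third place in BME at 536 ± 230 FPKM (SD, n = 2) and in the fourth place on plastic at 202 ± 61.8 FPKM (SD, n = 3). Its range overlapped those of its neighbours Gsto1 and Gsta4 in BME and that of Gsta4 below it on plastic, and in line 889 in BME its 373 FPKM lay below Gsta4 at 407 and Mgst1 at 503 FPKM. Its share of the summed FPKM of 30 GST and GST-related genes went from between 0.806% and 1.68% to between 7.94% and 8.46% in BME with dox. It stood at 8.82% in the mock library. On plastic the share went from between 0.245% and 1.12% to between 3.28% and 6.68%. The 10 members together made up 69.6% to 78.9% of that sum in BME and 73.2% to 84.3% on plastic. Gstp1 held 26.5% to 36.9% of it in BME and 26.9% to 45.2% on plastic.

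**Figure D2:**
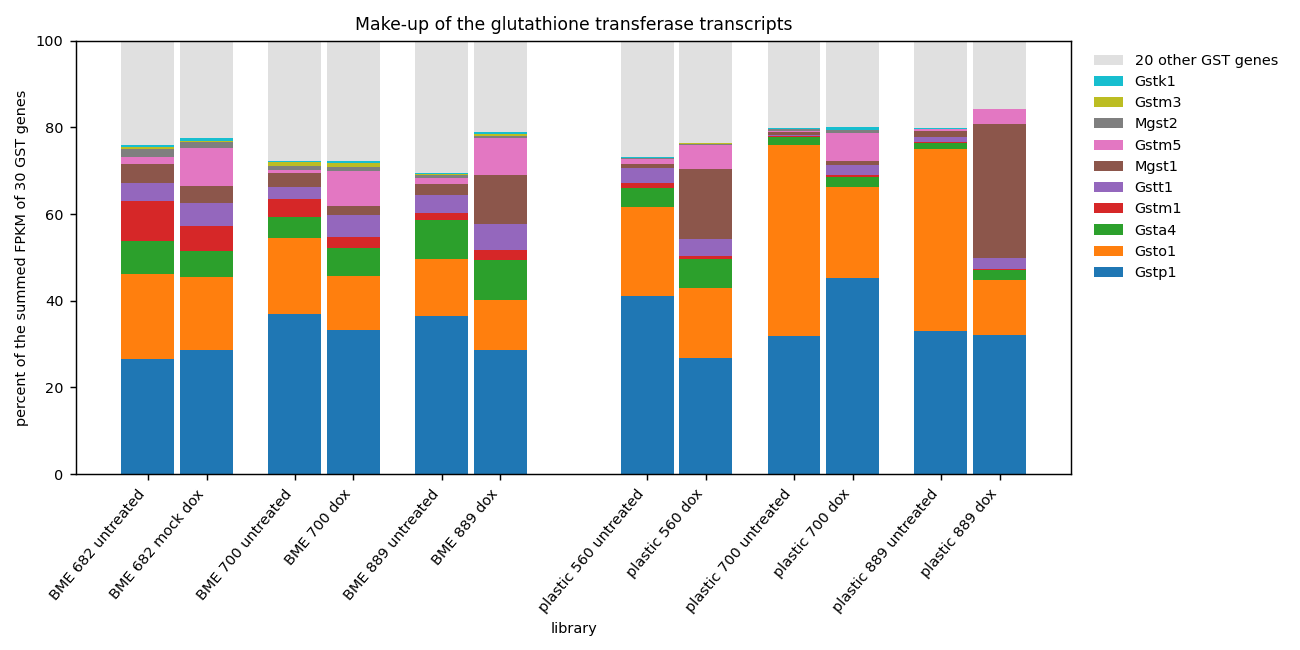
Percent of the summed FPKM of 30 listed GST and GST-related genes taken by each of the 10 members in every library, with the 20 other genes in grey. Bars stand in untreated and treated pairs by organoid line. The band of Gstm5 is wider in each treated bar, and Mgst1 takes 30.9% of the sum in the plastic dox library of line 889 against 1.48% without dox.

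Gstm5, a mu class enzyme, was the member with the largest mean change. In BME the level was 60.04 FPKM without and 699 FPKM with dox in line 700, which is 11.6-fold, and 39.5 and 373 FPKM in line 889, which is 9.45-fold. The plastic pairs had 35.4 and 193 FPKM in line 560 (5.47-fold), 11.7 and 267 FPKM in line 700 (22.9-fold), and 8.41 and 145 FPKM in line 889 (17.2-fold). On plastic every dox library was above every untreated one, as was so for 7.87% of all genes tested. In BME both dox libraries were above all 3 untreated ones, a separation for which no share of all genes was computed. With the mock library counted as a control, the dox and control libraries in BME overlapped.

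The mock pair showed the same direction for Gstm5, from 84.5 to 433 FPKM, or 5.12-fold. The mock library thus lay between the BME dox libraries, at a Smad4 level of 10.3 FPKM. On the log2(FPKM + 1) scale the change was 2.34 in the mock pair, 3.36 ± 0.22 over the BME dox pairs (SD, n = 2) and 3.59 ± 1.04 over the plastic pairs (SD, n = 3). Ordered by size, this increase was number 36, 14 and 23 among 12996 genes in the mock pair and the BME pairs of lines 700 and 889, and number 124, 17 and 69 among 12333 genes in the plastic pairs of lines 560, 700 and 889. Gstm5 was the only member that was higher by over 1 in all 5 dox pairs and in the mock pair. Of 11977 genes tested in both tables, 0.225% were higher by over 1 in all 5 dox pairs and 0.142% did so in the mock pair too. In the mock pair alone 1.29% of genes were higher by over 1. In the dox libraries, dox itself and the SMAD4 construct cannot be told apart for any member, since these libraries had both.

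**Figure D3:**
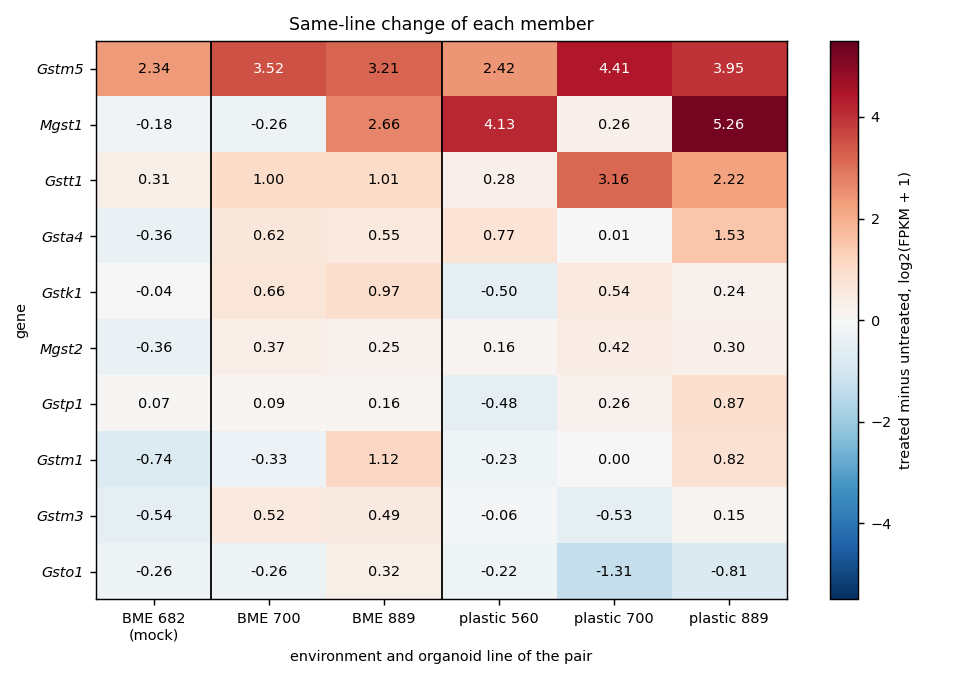
Treated minus untreated level on the log2(FPKM + 1) scale for each member (rows, ordered by mean) in the mock pair and the 5 dox pairs (columns), printed in each cell and coloured red for higher and blue for lower. The Gstm5 row runs from 2.34 to 4.41, and Gsto1 is below 0 in all columns but BME 889.

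Counting the mock library as a control, as the study does, the fitted change of Gstm5 in BME was 2.39 (SE 0.93), and it was 3.10 when the mock library was left out. On plastic the fitted change was 3.59 (SE 0.53).

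Gstt1, a theta class enzyme that acts on small halogenated compounds, was higher in the treated library of 6 of 6 pairs, but the size varied by line. In BME its pairs were 215 and 433 FPKM in line 700 and 128 and 259 FPKM in line 889, which is 2.01-fold and 2.03-fold higher with dox. The plastic pairs were 109 FPKM without and 133 FPKM with dox in line 560, 9.52 and 93.1 FPKM in line 700, and 24.1 and 116 FPKM in line 889. These are folds of 1.22, 9.78 and 4.80. The dox libraries on plastic were close together at 114 ± 19.99 FPKM, whereas the untreated ones spread over 47.5 ± 53.7 FPKM (SD, n = 3 each). In the mock pair Gstt1 was 210 FPKM without and 261 FPKM with dox, so the mock library stood just above the dox library of line 889.

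Mgst1, a membrane-bound GST of the endoplasmic reticulum and the outer mitochondrial membrane that also reduces lipid peroxides, differed most between lines. On plastic line 560 had 31.2 FPKM without and 564 FPKM with dox (18.0-fold) and line 889 had 34.7 and 1365 FPKM (39.3-fold), and in BME line 889 had 78.5 and 503 FPKM (6.41-fold). In line 700 it was 28.3 FPKM without and 34.2 FPKM with dox on plastic, and 231 FPKM without and 193 FPKM with dox in BME. The mock pair had 219 FPKM without and 193 FPKM with dox. Line 700 thus showed no large difference in either environment, although its Gstm5 and Gstt1 were higher with dox in both. In the plastic dox library of line 889, the one with the highest Mgst1, the 5 immune markers summed to 39.4 FPKM against 3.57 FPKM without dox, and in line 560 they summed to 13.02 FPKM with and 16.0 FPKM without dox, and their part in the Mgst1 values was not tested. The change of Mgst1 was 1.20 ± 2.07 in BME (SD, n = 2) and 3.22 ± 2.62 on plastic (SD, n = 3).

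The upstream sequences of these 3 genes are shown because they had the largest mean changes. Each is the 250 bases before the RefSeq transcription start on GRCm38.p6, 5′ to 3′ on the strand of the gene. The windows are chr3:107895604-107895853 (plus strand) for Gstm5, chr6:138140277-138140526 (plus strand) for the upstream-most of the listed starts of Mgst1, and chr10:75797732-75797981 (minus strand) for Gstt1. Capitals mark a match to TGACNNNGC, the core of the antioxidant response element bound by NRF2, on either strand.
Gstm5: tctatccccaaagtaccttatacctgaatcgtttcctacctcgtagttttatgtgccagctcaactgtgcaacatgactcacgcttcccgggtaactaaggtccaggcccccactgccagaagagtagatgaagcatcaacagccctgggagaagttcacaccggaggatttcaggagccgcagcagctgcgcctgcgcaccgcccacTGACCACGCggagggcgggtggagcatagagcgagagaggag
Mgst1: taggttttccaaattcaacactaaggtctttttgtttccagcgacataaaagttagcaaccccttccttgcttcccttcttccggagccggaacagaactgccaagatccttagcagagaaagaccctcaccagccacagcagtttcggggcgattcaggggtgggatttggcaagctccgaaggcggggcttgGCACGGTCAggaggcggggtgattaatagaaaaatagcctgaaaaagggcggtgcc
Gstt1: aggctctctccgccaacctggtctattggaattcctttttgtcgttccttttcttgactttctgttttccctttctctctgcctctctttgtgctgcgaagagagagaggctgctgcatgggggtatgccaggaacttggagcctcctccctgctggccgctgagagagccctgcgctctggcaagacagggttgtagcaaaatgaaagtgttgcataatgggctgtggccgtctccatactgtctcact
In windows of 250 bases before to 50 bases after the start, 9 of 10 members had an entry, and Gsta4 had none. These 9 genes had 11 promoters in all, with 2 each for Gstm1 and Mgst1. The core was found in 2 of the 11, 1 of Gstm5 and 1 of Mgst1, with its first base 42 bases before the start in Gstm5 and 56 bases before it in Mgst1, and in 12.4% of 32851 promoters of the same length. The letters CAGAC, a box that SMAD proteins bind, were found on either strand in 8 of the 11, which belong to 7 members, and in 49.6% of all promoters, and not in the windows of Gstm5 or Mgst1. The motifs CAGAC and TGACNNNGC were searched separately, and a match may overlap other motifs.

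Gsta4, an alpha class enzyme that conjugates products of lipid peroxidation such as hydroxynonenal, was higher with dox in 5 of 5 dox pairs and lower in the mock pair. In BME its pairs were 360 and 552 FPKM in line 700 and 278 and 407 FPKM in line 889, while the mock pair had 378 FPKM without and 294 FPKM with dox. Its plastic pairs were 137 and 234 FPKM in line 560, 87.3 and 88.2 FPKM in line 700, and 33.9 and 99.7 FPKM in line 889. Both BME dox libraries were above all 4 controls, which held for 1 of the 10 members, and the same separation was seen for 6.33% of all genes tested. On plastic the groups overlapped for Gsta4, and Gstm5 was the 1 member with every dox library above every untreated one, against 7.87% of all genes. No member had every dox library below every control, which 5.83% of genes did in BME and 7.26% on plastic.

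Mgst2, a membrane-bound enzyme that can also form leukotrienes, showed the same directions at a smaller size. Its folds with dox were 1.29 and 1.20 in BME and 1.13, 1.36 and 1.32 on plastic, and the mock pair had 85.9 FPKM without and 66.8 FPKM with dox. Its levels differed far more between lines than with dox, from 2.56 FPKM in untreated line 889 to 20.1 FPKM in untreated line 700 on plastic. Gstk1, the kappa class enzyme of mitochondria and peroxisomes, was higher with dox in 4 of 5 dox pairs, with 22.2 and 35.6 FPKM in line 700 and 9.21 and 18.9 FPKM in line 889 in BME. Line 560 on plastic had 7.88 FPKM without and 5.28 FPKM with dox, and the mock pair held 27.1 and 26.3 FPKM.

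Gsto1 was the member that was most often lower with dox, in 4 of 5 dox pairs. On plastic it was 2097 FPKM without and 846 FPKM with dox in line 700, 985 and 560 FPKM in line 889, and 648 and 556 FPKM in line 560. These dox libraries are 2.48-fold, 1.76-fold and 1.17-fold lower than their untreated partners, yet the groups overlapped because the untreated level of line 560 lay below the dox level of line 700. In BME it was 1320 and 1102 FPKM in line 700 and 407 and 508 FPKM in line 889, and the mock pair had 994 FPKM without and 828 FPKM with dox.

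Gstp1 differed little within BME pairs, where the folds were 1.07 in line 700, 1.11 in line 889 and 1.05 in the mock pair. On plastic it was 1301 FPKM without and 933 FPKM with dox in line 560, 1515 and 1810 FPKM in line 700, and 778 and 1420 FPKM in line 889. Its neighbour Gstp2 shares most of its sequence, so these values may hold reads of either gene. The mu class genes Gstm1 and Gstm3 did not rise as far as Gstm5 in any pair and were lower in the mock pair. Gstm3 did share the direction of Gstm5 in both BME dox pairs, and Gstm1 did so in line 889. Gstm1 was 301 and 239 FPKM in line 700 and 50.1 and 110 FPKM in line 889 in BME, and it went from 470 to 281 FPKM in the mock pair, the opposite of Gstm5 there. On plastic its pairs were 32.0 and 27.0 FPKM, 16.16 and 16.22 FPKM, and 6.06 and 11.5 FPKM in lines 560, 700 and 889. Gstm3 was 55.8 and 80.4 FPKM in line 700, 10.7 and 15.5 FPKM in line 889 and 21.1 and 14.2 FPKM in the mock pair, and on plastic it was between 0.224 and 4.02 FPKM in all 6 libraries.

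Across the members, the median same-line change was 0.44 in line 700 and 0.76 in line 889 in BME, with 7 and 10 of 10 members higher. On plastic it was 0.05, 0.26 and 0.85 in lines 560, 700 and 889, with 5, 8 and 9 of 10 higher. In the mock pair the median was -0.22 and 3 of 10 were higher, these being Gstm5, Gstt1 and Gstp1. The median over all genes was between -0.008 and 0.005 in every pair, and 48.1% to 50.45% of all genes were higher. The members were picked with these changes known, so their counts are a description. Fitted over groups, the members' median change was 0.47 in BME and 0.25 on plastic, against -0.006 and 0.009 for all genes tested. These medians rest on few libraries. Without the dox library of line 700 the BME median was -0.18, without that of line 889 it was 0.80, and the plastic median was -0.18 without the untreated library of line 889, 0.68 without that of line 700 and 0.68 without the dox library of line 889.

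All 10 members passed the filter of a mean of 0.5 FPKM in both tables. With limma and Benjamini-Hochberg adjustment over all genes, where a call needed both an adjusted p below 0.05 and a change of over 1 in size, 0 of 10 members were called in BME, where 0.0231% of 12996 genes were, and 0 of 10 on plastic, where 0.0324% of 12333 genes were. At an unadjusted p under 0.05 there were 2 in BME (Gsta4 and Gstm5), against 4.09% of all genes, and 2 on plastic (Gstm5 and Mgst1), against 8.29%. For the difference of the dox change between environments, limma called 0 of the 10 members and 0% of 11977 genes, and no member was under 0.05 unadjusted, where 303 genes were. The fitted difference, plastic minus BME, was 1.21 (SE 1.14) for Gstm5, 1.13 (SE 0.97) for Gstt1 and 2.32 (SE 1.54) for Mgst1. Nothing is read from these counts, since the members were picked with these contrasts known.

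Summed levels of cell type markers moved with dox in some of the same pairs. The 8 epithelial markers summed to 7516 and 9534 FPKM in the BME dox libraries and to 3902 to 4881 FPKM in the controls. On plastic they summed to 11679 FPKM with and 14203 FPKM without dox in line 560, 17189 and 13298 FPKM in line 700, and 12394 and 13022 FPKM in line 889, so the direction differed between lines. The sum of 8 enterocyte markers, of which Rbp2 and Sis had the highest levels and Fabp1 had at most 0.417 FPKM in any library, was 33.9 and 83.4 FPKM with dox in lines 700 and 889, 41.98 FPKM in the mock library, and 10.9, 72.6 and 13.9 FPKM in the untreated libraries of lines 700, 889 and 682. On plastic the dox libraries of lines 560, 700 and 889 had 39.98, 1.92 and 7.003 FPKM, against 5.48, 5.36 and 1.84 FPKM without dox. The treated library was higher than its partner in 5 of 6 pairs, the mock pair included. These sums are partial, since they leave out 1 listed enterocyte marker. The size of the differences and the direction in line 700 on plastic depended on the markers included, and neither is read from them. Stem cell markers (Lgr5, Olfm4, Ascl2 and Smoc2) were lower in sum in the treated library in 5 of 6 pairs, with 116 FPKM with and 173 FPKM without dox in line 700, 182 and 237 FPKM in line 889 and 197 and 208 FPKM in the mock pair in BME. On plastic they summed to 53.6 FPKM with and 93.9 FPKM without dox in line 560 and 1.06 and 2.63 FPKM in line 700, and were higher in line 889, with 9.54 and 1.39 FPKM. Markers of secretory cells (7 genes, among them Muc2 and Tff3) summed to 584 and 1166 FPKM with dox, 937 FPKM in the mock library and 1607 to 2318 FPKM in untreated BME libraries. Their sums on plastic were 843 FPKM with and 2166.5 FPKM without dox in line 560, 1.95 and 13.5 FPKM in line 700, and 143 and 2.62 FPKM in line 889, the line with the highest Mgst1 with dox. A sum follows its most abundant genes, so it is not a change shared by a list. Fitted on plastic, 2 of 3 tested stem cell markers and 5 of 5 tested secretory markers had a change above 0. In BME 3 of 3 and 4 of 5 were below 0. The stem cell sums of line 700 on plastic rest on low levels. The part of cell type shares in the members' changes was not tested, and in bulk libraries more cells of a type and more RNA per cell cannot be told apart.

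The 3 genes whose 6 same-line changes lay nearest to those of Gstm5, by Euclidean distance among 11977 genes, were Angptl4 (distance 2.18), Pla2g10 (2.54) and Ldhd (2.73). Angptl4 encodes a secreted inhibitor of lipoprotein lipase, Pla2g10 a secreted phospholipase and Ldhd a mitochondrial lactate dehydrogenase. The change of Angptl4 was 2.08 in the mock pair, 2.92 and 3.22 in BME, and 2.61, 2.43 and 3.35 on plastic in lines 560, 700 and 889. That of Pla2g10 was 2.05 in the mock pair and 1.91 to 3.61 in the dox pairs, and that of Ldhd 1.84 and 2.17 to 4.35. The likeness covers 6 pairs that share lines and tables, and is a description.

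**Figure D4:**
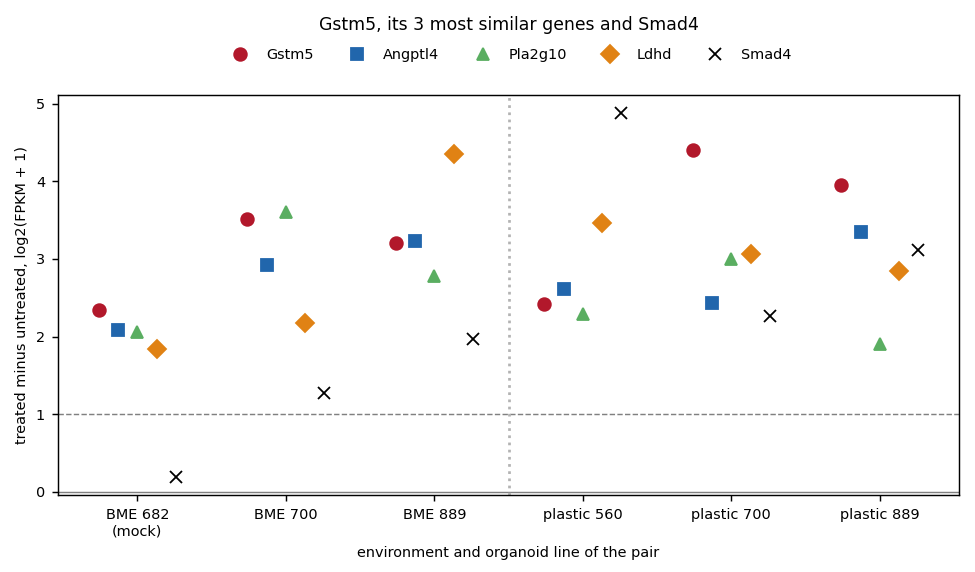
Treated minus untreated level on the log2(FPKM + 1) scale in the mock pair and the 5 dox pairs for Gstm5, the 3 genes nearest to it and Smad4; the dashed line marks a change of 1. In the mock pair Gstm5 and the 3 genes lie between 1.84 and 2.34 while Smad4 is at 0.19.

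Of 20 other listed GST and GST-related genes, 19 were tested in BME and 17 on plastic, and limma called 0 in either environment. At an unadjusted p under 0.05 there was 1 higher in BME and 1 higher and 1 lower on plastic. The tested genes were Gsta1, Gsta2, Gsta3, Gstm2, Gstm4, Gstm6, Gstm7, Gsto2, Gstp2, Gstp3, Gstt2, Gstt3, Gstz1, Gstcd, Mgst3, Hpgds, Ptges, Ltc4s and Alox5ap, and Gstt4 was tested in neither. Their fitted changes ran from -1.04 to 1.14 in BME and from -1.68 to 2.37 on plastic, with medians of 0.11 and -0.25. Hpgds, the sigma class GST that makes prostaglandin D, had a change of -0.30 in BME and of 2.37 on plastic, where its pairs were 0.415 and 10.1 FPKM in line 560, 0.186 and 0.487 FPKM in line 700, and 0.102 and 14.6 FPKM in line 889 (limma adjusted p = 0.567). Line 700 was thus the low one on plastic for both Hpgds and Mgst1. Ltc4s, which makes leukotrienes from glutathione, was lower with dox on plastic in 3 of 3 pairs, by a fitted -1.68 (limma adjusted p = 0.290), and had a fitted change of 0.12 in BME (limma adjusted p = 0.993). The difference between environments was -1.79 for Ltc4s (limma adjusted p = 1.00), and the mock pair had 12.9 FPKM without and 5.36 FPKM with dox. Gstm2, next to Gstm3 in the cluster, had a fitted change of -1.08 on plastic and -0.61 in BME (limma adjusted p = 0.824 and 0.979).

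Enzymes that make, recycle and break down glutathione were examined next. Of 27 listed genes 20 were tested in each environment and limma called 0 in either, with 1 higher in BME and 3 higher on plastic at an unadjusted p under 0.05, and medians of 0.08 and -0.01. Ggct, an enzyme of glutathione breakdown, had plastic pairs of 4.57 and 27.4 FPKM in line 560, 4.77 and 273 FPKM in line 700, and 2.82 and 110 FPKM in line 889, a fitted change of 4.26 (limma adjusted p = 0.206). In BME it was 5.40 and 11.9 FPKM in line 700 and 4.60 and 5.33 FPKM in line 889, and the difference between environments was 3.77 (limma adjusted p = 1.00). Glrx2, a mitochondrial glutaredoxin, had a change of 0.46 in BME and 0.52 on plastic, and Oplah, which returns oxoproline to glutamate, one of -1.11 and -0.28 (limma adjusted p from 0.589 to 0.959 for these 4 values).

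Among 7 transporters that export glutathione conjugates and drugs, limma called 0 of 7 tested in BME and 0 of 6 on plastic, with 0 in BME and 1 higher and 1 lower on plastic at an unadjusted p under 0.05. On plastic Abcg2 had a change of -1.57, Abcc5 of -0.9997 and Abcc4 of 1.05 (limma adjusted p = 0.583, 0.613 and 0.547), while in BME the changes of Abcg2, Abcc5 and Abcc4 were 0.11, -0.04 and 0.21.

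NRF2 and 10 genes around it were tested in both environments, and limma called 0 of 11 in each. At an unadjusted p under 0.05 there were 1 higher in BME and 1 lower on plastic. The medians were 0.02 in BME and 0.03 on plastic. The genes with the largest mean changes were Prdx1, a peroxiredoxin, with 0.60 in BME and 0.50 on plastic, Srxn1, a sulfiredoxin, with 0.50 and 0.40, and G6pdx, the entry enzyme of the pentose phosphate pathway, with 0.02 and -0.93. For G6pdx on plastic the limma adjusted p was 0.230, and its pairs were 168 and 86.0 FPKM, 193 and 101 FPKM, and 173 and 91.97 FPKM in lines 560, 700 and 889.

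Of 13 other conjugating and hydrolysing enzymes, 12 were tested in BME and 10 on plastic, and limma called 0 in either, with 1 higher in BME and 1 higher and 1 lower on plastic at an unadjusted p under 0.05. The median change was 0.26 in BME and 0.27 on plastic. Ephx2, the soluble epoxide hydrolase, had a change of 1.20 in BME and 1.47 on plastic (limma adjusted p = 0.959 and 0.162). Its 5 dox pairs were all higher, with 22.2 and 44.6 FPKM and 15.2 and 61.1 FPKM in BME and 45.03 to 59.7 FPKM with dox against 14.4 to 22.5 FPKM without on plastic, whereas the mock pair had 24.4 FPKM without and 29.1 FPKM with dox. Ephx1, the microsomal epoxide hydrolase, had a change of -1.66 on plastic and -0.26 in BME (limma adjusted p = 0.346 and 0.965). Sult1a1, a sulfotransferase, was tested in BME only, with a change of 0.69 (limma adjusted p = 0.959).

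**Figure D5:**
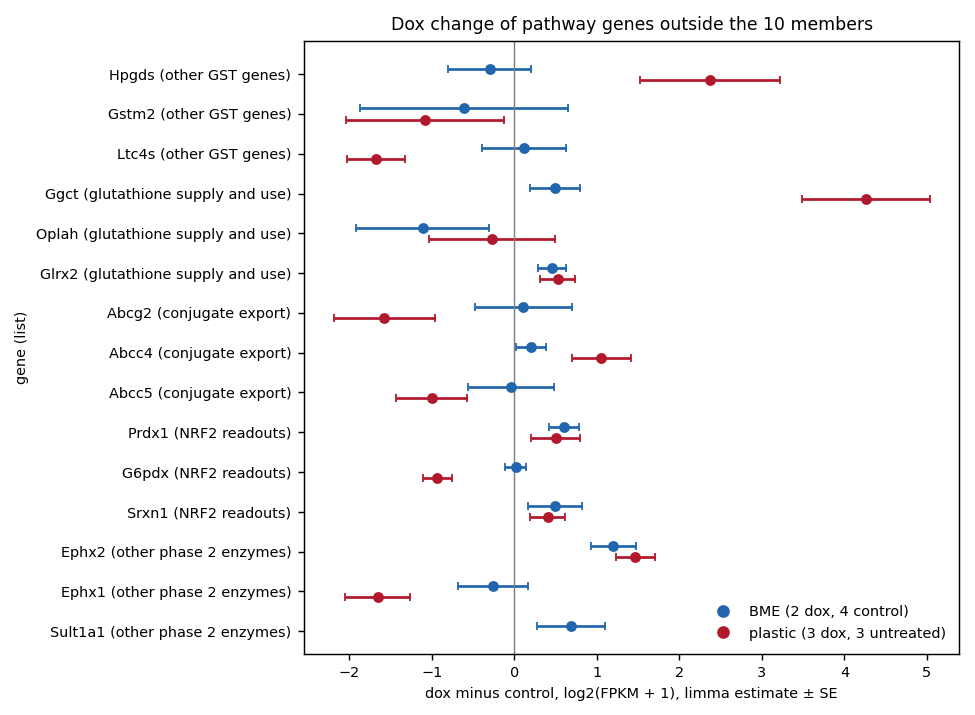
Fitted dox minus control change on the log2(FPKM + 1) scale, with its SE, for the 3 genes of each other list with the largest mean change, in BME (blue, 2 dox and 4 control libraries) and on plastic (red, 3 dox and 3 untreated). None of these genes was called, and Ggct at 4.26 and Hpgds at 2.37 on plastic lie farthest above 0.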

How the data were processed

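Reads were quantified by the authors with kallisto, DESeq2 was their tool for group comparisons, and the submitters' processing notes name mm9. Versions and the annotation are not given in the sources used here. FPKM values were deposited by the authors as 1 table per environment, normalized separately. The authors' comparison tables (mean normalized count, log2 fold change with SE, Wald statistic, p-values) were not used. The deposited values are not counts. Steps between low values, in whole multiples within 0.1 for 85.5% of 2399 low genes in BME and 83.7% of 2722 on plastic, gave relative depths only.

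Groups came from the labels. Genes with a mean of at least 0.5 FPKM were analysed as log2(FPKM + 1), so folds of low genes are understated. Dox and control libraries were fitted with limma 3.58.1 (lmFit, eBayes with trend, two-sided, Benjamini-Hochberg) in R 4.3.3, with 2 dox and 4 control libraries in BME and 3 of each on plastic. The difference between environments was fitted as an interaction over genes kept in both tables. The fits were also run on simulated data with independent noise and no differences between lines. That setting is simpler than these libraries, so nothing about the values given here is read from it. p-values measure the spread between these libraries, which are organoid lines. Libraries of the same line come from the same organoids, and their deviations from the group means correlated at 0.742 in BME and at 0.461, 0.612 and 0.247 on plastic, so the line was tried as a block.

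Members and gene lists were chosen with earlier results of these data known. All 10 members were named, as were the other GST and GST-related genes with a mean of at least 0.5 FPKM in either table, called genes of the other lists, the 3 genes of each list with the largest mean change over both environments, and the 3 genes most like Gstm5. Positions and transcripts came from the GENCODE annotation of NCBIM37, and promoters from RefSeq on GRCm38.p6. Shared words were counted over protein-coding transcripts, so pseudogenes were not covered. Alternatives were another pseudocount, rescaled libraries, a block, no filter, and leaving out each library. Of the listed enterocyte markers 1 is not reported here, and the marker sum leaves it out, a choice made after seeing the data.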

Additional observations from a re-analysis of the deposited data

Results flagged for a closer look

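Among the 4 control libraries in BME, the level of each of the 10 members was examined for a library far from the other 3. For Gstm5 this was so, with the mock dox library of line 682 at 433 FPKM against 39.5, 60.04 and 84.5 FPKM in the untreated libraries. For Gstp1 it was so by a narrow margin, with the untreated library of line 700 at 2749 FPKM against 1130, 1338 and 1405 FPKM. Chance alone flags about 1 in 20 such groups, or 0.5 of 10, but the members were picked with these levels known and are not independent of each other, so the flags are a description and nothing is read from their number. No member went one way in all BME dox pairs and the opposite way in all plastic pairs.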

How the results depend on the processing

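Only 2 dox libraries in BME and 3 on plastic limit every value, and Gstm3 on plastic rests on few reads. The number of genes called in BME was 3, and it was 1 with a pseudocount of 0.1 FPKM, 0 with the mock library left out and 0 to 37 with another library left out, with 37 without the dox library of line 700 and 0 without any of the other 4. On plastic 4 genes were called, against 10 with a pseudocount of 0.1 FPKM, 0 with no filter, 2 without the dox library of line 889, 55 without that of line 700 and 0 without any of the other 4, a range of 0 to 55. The difference between environments had 0 calls, and 5 with no filter. With the organoid line as a replicate block the calls were 0 in BME and 7 on plastic, and under this block the interaction count stayed at 0 and both member medians moved by less than the spread between replicates. Leaving out 1 library gave member medians from -0.18 to 0.80 in BME and from -0.18 to 0.68 on plastic, and 2 of these values in BME and 3 on plastic moved by more than that spread. Of 90 alternative values of single members in each environment, 46 in BME and 9 on plastic moved by more than the spread between dox pairs, and 11 and 11 changed sign, in Gstk1, Gstm1, Gstm3, Gstp1 and Mgst2 and, in BME, Gsto1. The spread in BME is an SD of only 2 pairs, as small as 0.00755 for Gstt1. The counts of moved values are therefore not comparable between environments. Among other named genes, directions in BME turned with the replicate block for Abcc5 (0.0190), Ephx1 (0.0495), Gstm2 (0.46), Hpgds (0.27) and Ltc4s (-0.0191), with the mock library left out for Abcc5 (0.0137) and Ltc4s (-0.12), and with rescaled libraries for G6pdx (-0.000344). Leaving out 1 library turned the direction in BME for Abcc5 (-0.74 to 0.66), Abcg2 (-0.59 to 0.82), Ephx1 (-0.74 to 0.22), G6pdx (-0.0632 to 0.10), Ggct (-0.0221 to 1.00), Gstm2 (-1.95 to 0.74), Hpgds (-0.84 to 0.25) and Ltc4s (-0.10 to 0.42), and on plastic for Oplah (-0.97 to 0.33). None of these was called, except that Hpgds on plastic passed at 3.42 without the dox library of line 700. The cause of these differences was not tested.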

Other observations

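Gstm5 was 1 of 17 genes that were higher by over 1 on the log2(FPKM + 1) scale in all 5 dox pairs and in the mock pair. The others included 2210407C18Rik, Adgrg1, Angptl4, Cdkn2d, Fcer2a, Il1a, Ldhd, Muc13, Nrip3, Opn3, Pax9, Pla2g10, Pla2g10os, Socs3 and Tmem131l. Muc13, a transmembrane mucin of the gut epithelium, was higher by 2.72 in the mock pair and by 1.20 to 4.56 in the dox pairs. Socs3, a feedback inhibitor of cytokine signaling, was higher by 1.57 in the mock pair and by 1.09 to 4.21 in the dox pairs. In the opposite direction 2 genes were lower by over 1 in all 5 dox pairs and 0 did so in the mock pair too.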
